A study of Mus musculus with 8 samples.

Results

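The 9 tubular injury markers Havcr1, Lcn2, Clu, Spp1, Vcam1, Icam1, Cd44, Serpina3n and Akr1b8 were followed in kidney RNA of C57BL/6J mice aged 8 weeks, at day 3 after ischaemia-reperfusion injury (IRI). They were taken by symbol, through their Ensembl identifiers, as 9 of the 34450 genes of the deposited expression table, and all 9 had values in all 8 libraries. The 4 hypoxia libraries (1 to 4) came from mice exposed to low oxygen ahead of IRI, a treatment called hypoxic preconditioning, and the 4 normoxia libraries (5 to 8) from mice left in normal oxygen ahead of the same injury. Every kidney was injured, no uninjured kidney was analysed here, and the oxygen level and the lengths of exposure and ischaemia were not stated. The labels do not say that each library is a separate mouse, so each p-value reflects only how much these libraries vary, and that variation may be technical.

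When blood flow to the kidney is stopped and restored, proximal tubule cells lose their brush border, some die, and survivors switch on genes that a healthy nephron keeps low. Some of these genes encode proteins that reach the urine and serve as injury biomarkers, others encode adhesion molecules that hold leukocytes or secreted proteins that bind cell debris, matrix or proteases. Several stay on in tubule cells that fail to repair.

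Values are FPKM, fragments per kilobase of transcript scaled to library size, a unit that allows levels to be compared between genes. Changes are hypoxia minus normoxia on the log2(FPKM + 0.5) scale, which understates the change of low genes, with the standard error (SE). A gene passed the test where limma's moderated test, two-sided, gave a Benjamini-Hochberg adjusted p under 0.05 over the 14444 genes with a mean of at least 0.5 FPKM. All 9 markers were among those genes. In bulk tissue, fewer cells of a type and less RNA per cell cannot be told apart, which holds for every difference given here.

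The libraries differed in ways that touch these values. Ribosomal transcripts took between 13.5% (normoxia library 5) and 72.5% (normoxia library 8) of the estimated fragments. Nuclear protein-coding genes received roughly 1710000 to 8730000 fragments per library, estimated from the spacing of low FPKM values. Hypoxia libraries 1 and 2 resembled each other (Spearman correlation 0.924 across genes), as did 3 and 4 (0.921), and the protein-coding share was 42.5% and 56.7% in the first pair and 20.3% and 21.5% in the second.

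Akr1b8 and Cd44 were lower after hypoxic preconditioning and passed the test, and no marker was higher. The remaining 7 also had negative changes that did not pass, the largest in Havcr1, at -3.37, and the smallest in Serpina3n, at -0.92. The 2 of 9 that passed stand beside 0.602% of all tested genes that passed as lower and 0.305% as higher. The median change of the 9 markers was -2.46 and that of all tested genes -0.14. A negative change was seen in 61.0% of all tested genes, and a change below -2 in 1.09% of them and in 6 of the 9 markers. At an unadjusted p under 0.05, 6 of the 9 were lower and 0 higher by limma, beside 6.84% and 2.52% of all tested genes. In 2 of the 9, Lcn2 and Akr1b8, every hypoxia library lay below every normoxia library, which was so for 3.06% of all tested genes.

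**Figure D1:**
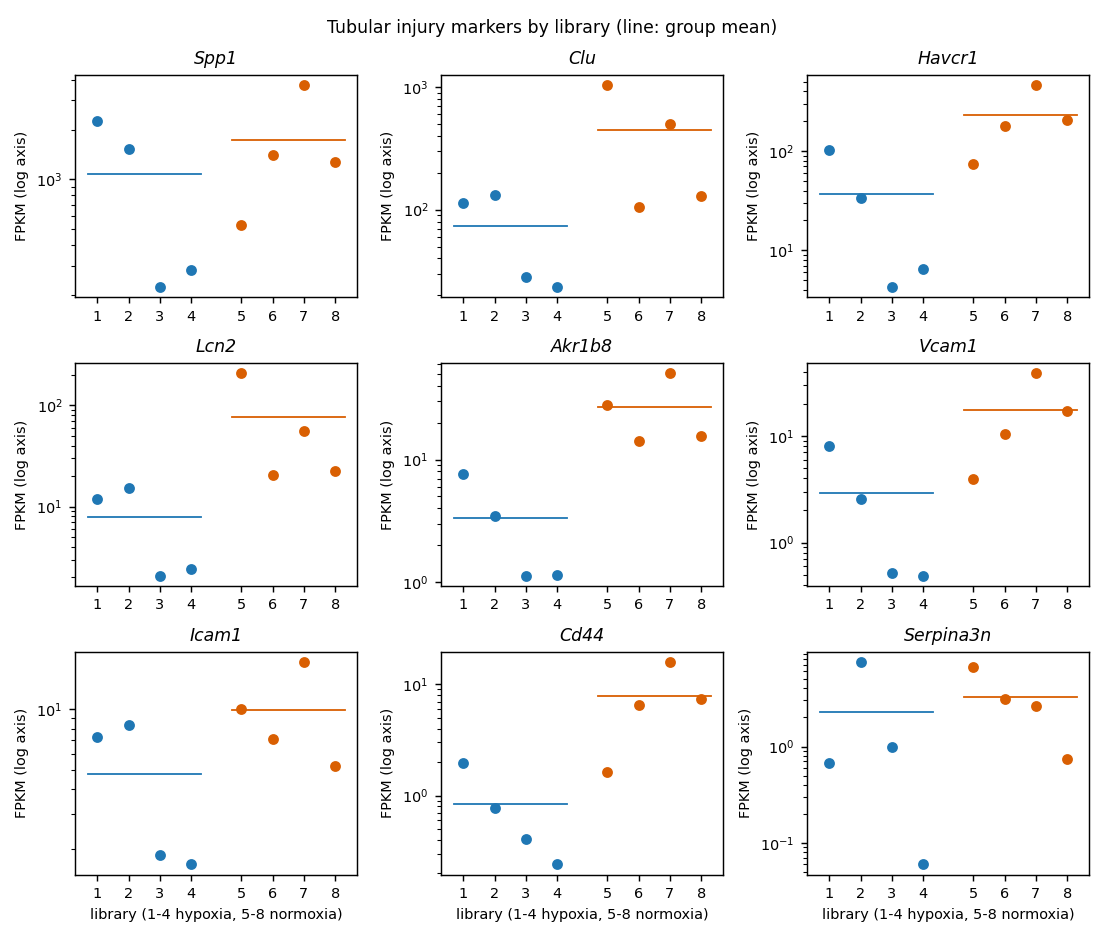
FPKM of each injury marker (log axis) in the 4 hypoxia and the 4 normoxia libraries, 1 point per library. Lcn2 and Akr1b8 are lower in every hypoxia library than in any normoxia library, as are 3.06% of all tested genes. Hypoxia libraries 3 and 4 both lie below 1 and 2 for 8 of the 9 markers, as for 79.1% of all tested genes.

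Havcr1 (ENSMUSG00000040405, GRCm38 chr11:46735080-46779578) encodes kidney injury molecule-1, a phosphatidylserine receptor that injured proximal tubule cells place on their apical membrane to take up dead cells. It measured 101.7, 33.8, 4.27 and 6.43 FPKM in hypoxia libraries 1 to 4 and 74.8, 179.7, 467.9 and 206.9 FPKM in normoxia libraries 5 to 8. Hypoxia library 1 lay above normoxia library 5, and the other 3 normoxia libraries lay above every hypoxia library. The means were 36.6 ± 45.5 and 232 ± 167 FPKM (SD, n = 4 each). The change of -3.37 ± 0.94 (SE) did not pass the test (limma adjusted p = 0.0855).

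Lcn2 (ENSMUSG00000026822, chr2:32384633-32388252) encodes lipocalin-2, or NGAL, which binds iron-carrying siderophores and is made by stressed distal nephron cells and by neutrophils. Its level was 12.0, 15.3, 2.08 and 2.44 FPKM in the hypoxia libraries and 206.6, 20.4, 55.9 and 22.7 FPKM in the normoxia libraries. The groups did not overlap, although hypoxia library 2 and normoxia library 6 were close. The change was -2.97 ± 0.83 (SE), with a limma adjusted p of 0.0855. Clu (ENSMUSG00000022037, chr14:65968483-65981547) encodes clusterin, a secreted chaperone that binds misfolded proteins and debris. It measured 113.5, 130.6, 28.3 and 23.45 FPKM after hypoxia and 1048, 105.2, 497 and 129.2 FPKM after normoxia. Hypoxia library 2 exceeded normoxia libraries 6 and 8, so the groups overlapped, and the change of -2.36 ± 0.92 (SE) had a limma adjusted p of 0.321.

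Spp1 (ENSMUSG00000029304, chr5:104435118-104441050) encodes osteopontin, a secreted phosphoprotein that binds integrins and Cd44. It was the most abundant marker in 7 libraries, the exception being normoxia library 5, where Clu was higher. Spp1 measured 2259, 1519, 223.9 and 281.7 FPKM in the hypoxia libraries and 527.7, 1398, 3739.8 and 1268 FPKM in the normoxia libraries. The groups overlapped widely, and only normoxia library 7 exceeded all the hypoxia libraries. The change of -1.003 ± 0.89 (SE) was close to its own error (limma adjusted p = 0.900).

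Cd44 (ENSMUSG00000005087, chr2:102811141-102901665) encodes the hyaluronan receptor, which also binds osteopontin and appears on regenerating tubule cells and on leukocytes. It measured 1.95, 0.78, 0.41 and 0.24 FPKM in the hypoxia libraries and 1.63, 6.48, 15.8 and 7.44 FPKM in the normoxia libraries. Hypoxia library 1 lay above normoxia library 5, and the remaining normoxia libraries lay above every hypoxia library. Cd44 fell by 2.46 on the log2 scale, with an SE of 0.57 and a limma adjusted p of 0.0356. Cd44 lost the call without hypoxia library 2, 3 or 4 or normoxia library 7 and kept it without normoxia library 5, where the change was -3.00 ± 0.50 (SE).

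Vcam1 (ENSMUSG00000027962, chr3:116109949-116129688) encodes a membrane ligand for leukocyte integrins, carried by activated endothelium and by proximal tubule cells that have not completed repair. It measured 8.08, 2.54, 0.52 and 0.49 FPKM after hypoxia and 3.92, 10.5, 38.5 and 17.2 FPKM after normoxia. Hypoxia library 1 lay above normoxia library 5, as for Havcr1 and Cd44, and the change of -2.58 ± 0.72 (SE) had a limma adjusted p of 0.0872. Icam1 (ENSMUSG00000037405, chr9:21015985-21028817) encodes a ligand for the integrins of neutrophils and macrophages. It measured 7.25, 8.29, 1.87 and 1.68 FPKM after hypoxia and 10.03, 7.09, 17.15 and 5.2 FPKM after normoxia. Its groups overlapped, and the change was -1.13 ± 0.63 (SE), with a limma adjusted p of 0.670.

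Serpina3n (ENSMUSG00000021091, chr12:104406729-104414329) encodes a secreted serine protease inhibitor of the acute phase. It measured 0.68, 7.47, 1.0 and 0.06 FPKM in the hypoxia libraries, the last on about 1.1 fragments, and 6.63, 3.13, 2.62 and 0.74 FPKM in the normoxia libraries. Hypoxia library 2 was higher than every normoxia library, and the other 3 hypoxia libraries lay below 3 of the 4. The change of -0.92 ± 0.64 (SE) had a limma adjusted p of 0.807.

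Akr1b8 (ENSMUSG00000029762, chr6:34354119-34368463) encodes an aldo-keto reductase that reduces reactive aldehydes. It measured 7.62, 3.47, 1.13 and 1.14 FPKM in the hypoxia libraries and 27.7, 14.1, 50.3 and 15.6 FPKM in the normoxia libraries. The lowest of these levels rested on about 14.2 fragments. Every normoxia library lay above every hypoxia library, with a gap between 7.62 and 14.1 FPKM. Akr1b8 fell by 2.98 on the log2 scale, with an SE of 0.68 and a limma adjusted p of 0.0320.

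Stretches before the transcription start are shown for Cd44 and Akr1b8, the markers that passed the test, and for Icam1 and Serpina3n, which held motif matches and did not pass. The sequences are from RefSeq (GRCm38.p6), read 5′ to 3′ on the strand of the gene, for the windows chr2:102901666-102901915 (Cd44, minus strand), chr6:34353896-34354118 (Akr1b8, plus), chr9:21015690-21015939 (Icam1, plus) and chr12:104406458-104406707 (Serpina3n, plus). Capitals mark motif matches, ACGTG (HIF) in Cd44, TTCNNNGAA (STAT) in Icam1 and GGGA followed after 4 bases by CC (NF-kappaB) in Serpina3n, where the upstream match reads on the other strand.
Cd44: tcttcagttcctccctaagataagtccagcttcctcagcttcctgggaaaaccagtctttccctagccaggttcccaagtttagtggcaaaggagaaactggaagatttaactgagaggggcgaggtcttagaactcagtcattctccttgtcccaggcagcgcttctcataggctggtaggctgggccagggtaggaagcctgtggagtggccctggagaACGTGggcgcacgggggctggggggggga
Akr1b8: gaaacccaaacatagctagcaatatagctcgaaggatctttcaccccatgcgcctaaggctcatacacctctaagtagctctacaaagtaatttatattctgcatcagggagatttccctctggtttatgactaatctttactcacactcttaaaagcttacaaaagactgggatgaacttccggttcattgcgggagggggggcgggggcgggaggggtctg
Icam1: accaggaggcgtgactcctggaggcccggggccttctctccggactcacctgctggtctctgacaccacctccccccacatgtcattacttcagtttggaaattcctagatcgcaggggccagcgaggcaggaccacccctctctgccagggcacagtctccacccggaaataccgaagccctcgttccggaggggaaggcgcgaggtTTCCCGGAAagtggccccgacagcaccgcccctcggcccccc
Serpina3n: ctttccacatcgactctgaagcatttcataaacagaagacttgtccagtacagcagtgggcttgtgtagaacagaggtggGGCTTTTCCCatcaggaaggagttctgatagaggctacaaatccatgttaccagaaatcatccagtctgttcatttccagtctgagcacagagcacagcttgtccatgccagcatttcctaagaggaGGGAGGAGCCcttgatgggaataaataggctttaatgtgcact

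Windows of 250 bases were found for 7 of the 9 markers, Clu and Vcam1 being unmatched. For Akr1b8 the full window was searched, and the 223 bases before its gene coordinates are shown. Both strands were searched. Cd44 held ACGTG 29 bases before its start, Icam1 the STAT motif 42 bases before, and Serpina3n the NF-kappaB motif 170 and 43 bases before. Havcr1 held ACGTG at 239 and 154 bases before its 2 later annotated starts. Lcn2, Spp1 and Akr1b8 held none of the motifs searched, which also included TGANTCA (AP-1) and TGACNNNGC (NRF2). The windows of Lcn2 and Havcr1 lay inside the gene coordinates given above. Sequence before the 5′ end of those coordinates was therefore not searched for these genes. Of 32851 promoters of the same length, the NF-kappaB motif was held by 17.6%, ACGTG by 16.6%, the NRF2 motif by 10.2%, the STAT motif by 7.02% and the AP-1 motif by 6.75%. A match describes letters only.

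The 9 markers did not move as a block across libraries. For 8 of the 9, all but Serpina3n, hypoxia libraries 3 and 4 both lay below 1 and 2, which was so for 79.1% of all tested genes. The mean of libraries 1 and 2 was 12.7 times that of 3 and 4 for Havcr1, 10.5 times for Vcam1 and 4.20 times for Cd44. When each library was divided by its protein-coding fragments, these ratios were 5.97, 4.93 and 1.93. On that scale the groups did not overlap for Lcn2, Clu, Icam1 and Akr1b8, 4 of the 9, beside 7.02% of all tested genes. The part that library composition played in the differences was not tested.

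Normoxia library 5 divided the markers. It was the highest normoxia library for Lcn2, Clu and Serpina3n, and the lowest for Havcr1, Spp1, Vcam1 and Cd44. Compared with the mean of normoxia libraries 6 to 8, Lcn2 was higher in it by 2.78 and Clu by 2.47 on the log2 scale. Genes of like length (between 4/5 and 5/4 of the marker's own) had medians of 0.029 and -0.26 there. Cd44 and Vcam1 were at -2.18 and -2.15, where genes of like length had medians of -0.76 and -0.88, and Havcr1 and Spp1 were at -1.79 and -1.83 against 0.14 and 0.44. Havcr1 and Spp1, low in this library, have exon lengths of 2311 and 1648 bases, and Lcn2 and Clu, high in it, 2623 and 3437 bases.

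**Figure D2:**
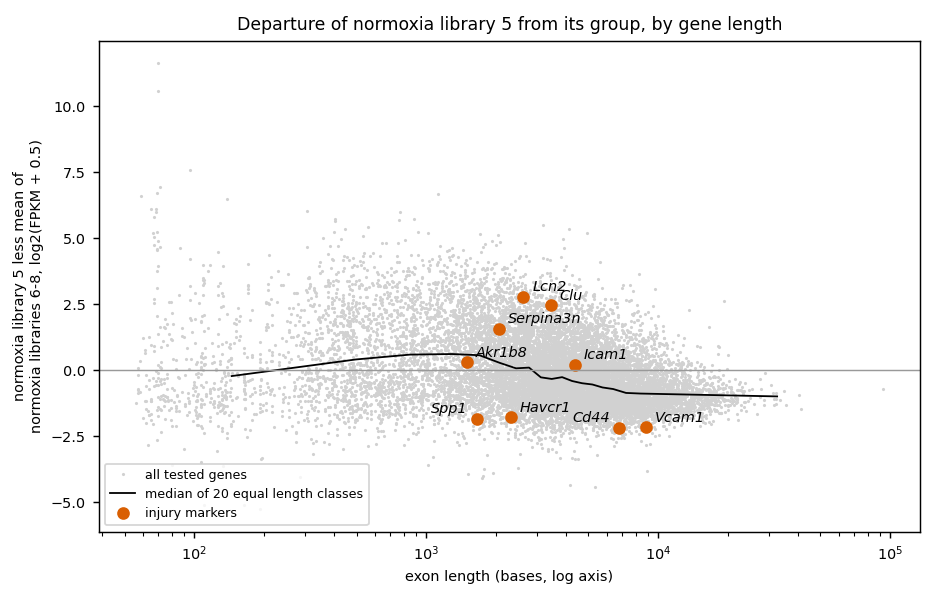
Difference between normoxia library 5 and the mean of normoxia libraries 6 to 8 (log2) against exon length (bases, log axis). All tested genes are grey, the injury markers orange, and the line is the median of length classes with equal numbers of genes. Lcn2 and Clu lie above the line, at 2.78 and 2.47, and Havcr1, Spp1, Vcam1 and Cd44 lie below it. Serpina3n and Icam1, at 1.56 and 0.20, also exceed the median of genes of like length, and Akr1b8, at 0.30, does not.

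With TMM scaling, which equalises libraries on the bulk of their genes and moved the median change of all tested genes from -0.14 to 0.034, Akr1b8 and Cd44 again passed, 2 of 9 beside 1.2% of all tested genes called lower and 1.18% higher. All-gene counts went from 44 higher and 87 lower to 170 higher and 173 lower. With TMM scaling and normoxia library 5 left out, 5 of the 9 markers were lower (Havcr1, Lcn2, Vcam1, Cd44 and Akr1b8), beside 4.22% of all genes tested in that fit. There Havcr1 changed by -3.53 ± 0.78 (SE, limma adjusted p = 0.0305) and Lcn2 by -2.01 ± 0.46 (SE, limma adjusted p = 0.0332). When hypoxia libraries 1 and 2 were averaged, and 3 and 4, 0 of the 9 passed by limma (5 at an unadjusted p under 0.05), with adjusted p of 0.311 for Akr1b8 and 0.256 for Cd44. Without normoxia library 7 neither passed (limma adjusted p = 0.189 and 0.222), nor without hypoxia library 3 (0.0955 and 0.0547) or hypoxia library 4 (0.0858 and 0.066). Without hypoxia library 2 Akr1b8 passed (limma adjusted p = 0.0448) and Cd44 did not (0.0544), and without normoxia library 5 the reverse held (0.0785 and 0.0286). Without hypoxia library 1, 5 of the 9 were lower, beside 1.07% of all genes tested in that fit. With scaling to protein-coding fragments Lcn2 passed (limma adjusted p = 0.0332) and Cd44 did not (0.0621), and with a pseudocount of 1 Cd44 did not (0.06). Neither Akr1b8 nor Cd44 passed without a filter on low values or with untrended variance.

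**Figure D3:**
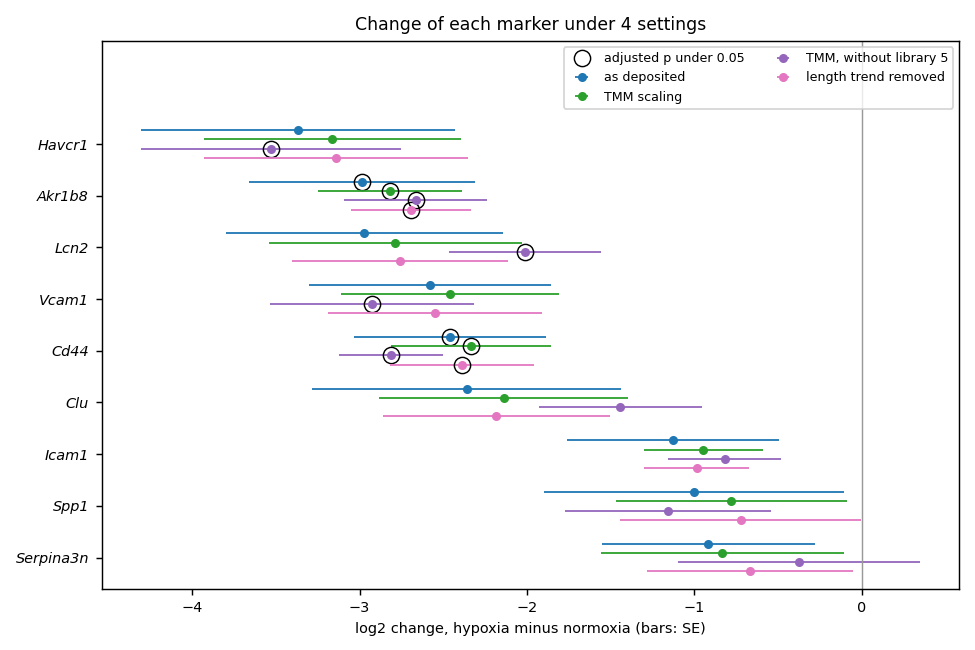
Change of each marker (log2, hypoxia minus normoxia, bars SE) as deposited, with TMM scaling, with TMM scaling without normoxia library 5 and with each library's trend with gene length removed. Circles mark adjusted p under 0.05, and all points lie below 0.

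Each marker was set against the mean of the other 8 markers in the same library, on the log2(FPKM + 0.5) scale, where the added 0.5 weighs on markers under 1 FPKM. Spp1 stood 1.34 higher after hypoxia than after normoxia on this scale, Icam1 1.20 higher and Akr1b8 0.89 lower, each with groups that did not overlap. Each had a two-sided exact permutation p of 0.0286, the smallest that 4 against 4 libraries can give, and 0.0857 after Benjamini-Hochberg adjustment over the 9 markers, so none passed. With a pseudocount of 1 the exact permutation p of Spp1 was 0.0857. Havcr1 was lower by 1.32 (exact permutation p = 0.0857, adjusted 0.193). The other 5 had exact permutation p between 0.171 and 0.943, and the 9 values are tied to each other because each marker is part of the mean for the rest. Spp1 made up a mean of 88.0% of the summed FPKM of the 9 markers after hypoxia and 65.0% after normoxia, and 27.7% in normoxia library 5.

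**Figure D4:**
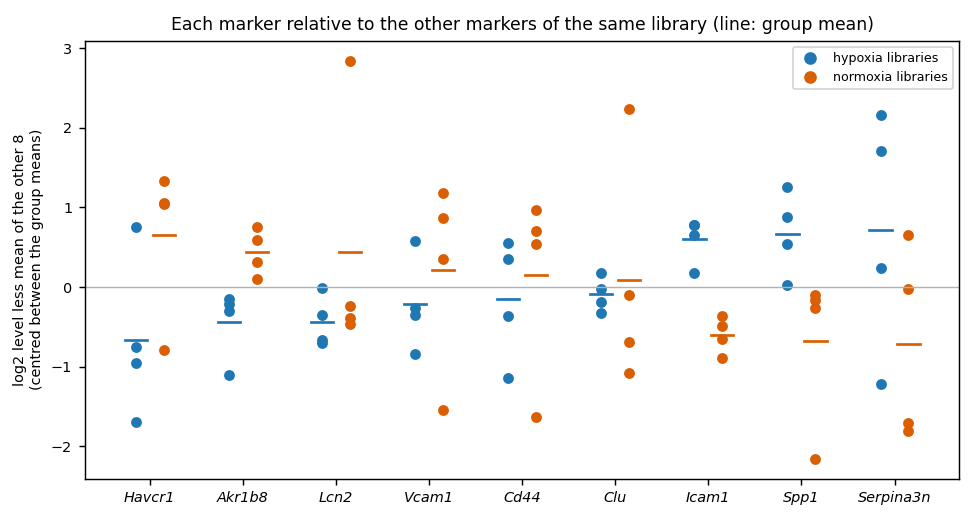
Level of each marker relative to the mean of the other 8 in the same library (log2, centred between the group means), 1 point per library and a line at each group mean. Spp1 and Icam1 sit higher and Akr1b8 lower in the 4 hypoxia libraries, without overlap.

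Among the markers, Lcn2 and Clu had the most similar course over the 8 libraries (root mean square difference 0.406 on the log2 scale after centring each gene), then Vcam1 and Cd44 (0.494) and Havcr1 and Vcam1 (0.581). Havcr1 and Serpina3n differed most, at 2.13. Of 10106 other genes, Lgals3 (galectin-3, a lectin of macrophages and injured epithelium) was nearest to Clu, at 0.187. Hspb1 (a small heat shock protein, 0.261) and C1qb (a complement subunit made by macrophages, 0.306) were nearest to Lcn2. Ccl7 (a monocyte chemokine, 0.206) and Cldn1 (a tight junction protein, 0.258) were nearest to Cd44. Cxcl1, a neutrophil chemokine, was nearest to Vcam1, at 0.317, followed by Plk1, at 0.421. Cks1b was nearest to Havcr1, at 0.541, and Cxcl1 second nearest, at 0.578. The genes nearest to Akr1b8 were Tmsb10 (an actin-binding peptide, 0.196) and Cdc20 (a mitotic regulator, 0.287). Icam1 lay nearest to Cct3 (0.138), Spp1 to Hnrnpa1 (0.342), and Serpina3n to Ly6f (0.351). The 8 libraries share depth and composition, so these distances are descriptions.

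Akr1b8 was also set against Akr1b3, Akr1b7 and Akr1b10, reductases of the same family, a comparison chosen after the values were seen. Akr1b3 measured 8.13, 4.2, 10.33 and 5.19 FPKM in the hypoxia libraries and 12.3, 3.43, 8.36 and 2.12 FPKM in the normoxia libraries, and its groups overlapped, as did those of Akr1b7 and Akr1b10. None of these 3 relatives passed the limma test. The log2 ratio of Akr1b8 to their mean was -0.25 ± 0.88 after hypoxia and 2.92 ± 0.24 after normoxia (SD, n = 4 each). The difference of -3.17 had a two-sided exact permutation p of 0.0286, the smallest possible, and 0.0571 when adjusted over the 2 such comparisons. Serpina3g, a relative of Serpina3n, fell by 2.38 on the log2 scale with an SE of 0.57 and a limma adjusted p of 0.0415 (0.0606 with TMM scaling). The ratio of Serpina3n to Serpina3g differed by 1.46 and did not pass (two-sided exact permutation p = 0.2). Of the 50-base stretches of each marker, those also found in other genes were 13.1% for Icam1, 11.6% for Spp1, 6.9% for Serpina3n, 4.6% for Havcr1 (mostly Timd2), 2.9% for Akr1b8 (mostly Akr1b10) and 0.465% for Vcam1, so some reads could be divided. Icam1 and Vcam1 overlap the antisense genes Gm47079 and Gm43109 in exons, and Spp1 overlaps Gm42793 on the same strand. Whether counting used strand was not stated.

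**Figure D5:**
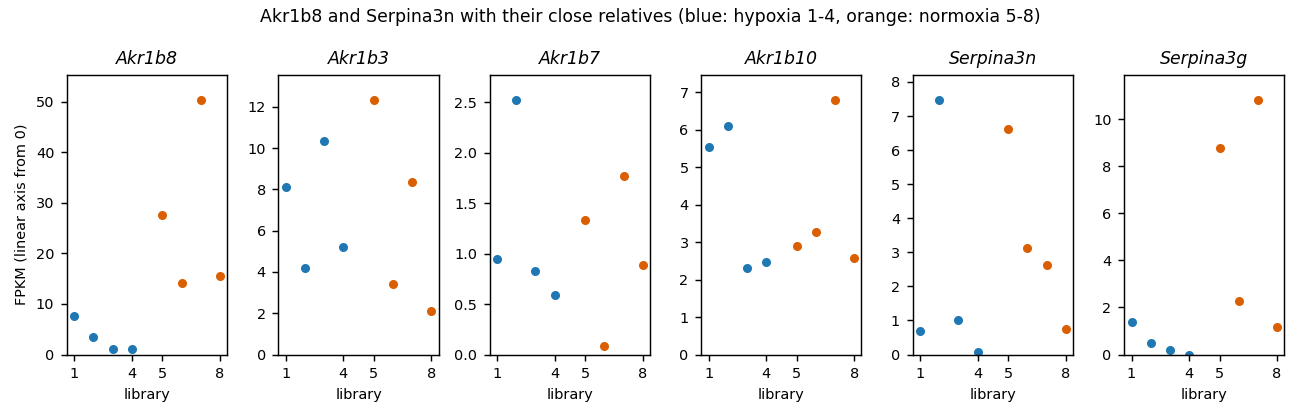
FPKM per library of Akr1b8 and its relatives Akr1b3, Akr1b7 and Akr1b10, and of Serpina3n and Serpina3g (linear axis). Akr1b8 separates the groups, while those of its 3 relatives overlap.

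Other genes of tubular injury and repair were taken from a list of 30, of which 29 were tested. Of these, 4 fell and 0 rose by limma (13 and 1 at an unadjusted p under 0.05), with a median change of -1.10 beside -0.14 over all genes, of which 0.602% passed as lower. With TMM scaling and without normoxia library 5, 10 of the 29 were lower, beside 4.22% of all genes. The 4 that fell as deposited included Sox9, a transcription factor of regenerating tubule cells (-2.14, limma adjusted p = 0.0221), and S100a6, a calcium-binding protein (-3.64, 0.0320). Also among these 4 were Krt20, a keratin of injured epithelium (-3.10, limma adjusted p = 0.0385), and Timp1, an inhibitor of matrix proteases (-4.03, 0.0252). Timp1 had overlapping groups and a limma adjusted p of 0.0790 with TMM scaling. Of 18 tested binding partners of the markers, 0 passed the limma test (4 were lower at an unadjusted p under 0.05), with a median change of -0.74. The smallest p values among them were those of Trem2, a lipid receptor of macrophages (-1.83, limma adjusted p = 0.0600), and Itgam, the alpha chain of an integrin that binds Icam1 (-1.72, limma adjusted p = 0.0882). With TMM scaling and without normoxia library 5, 6 of the 18 were lower, beside 4.22% of all genes.

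Of 18 tested genes of NF-kappaB and acute-phase induction 0 passed the limma test (3 were lower at an unadjusted p under 0.05), and the median was -0.68. With TMM scaling and without normoxia library 5, 5 of the 18 were lower, again beside 4.22% of all genes. Relb and Nfkb2, NF-kappaB subunits, changed by -1.53 and -1.72 (limma adjusted p = 0.188 and 0.220). Of 14 tested targets of NRF2, the regulator of antioxidant genes, 0 passed the limma test (1 was lower at an unadjusted p under 0.05), with a median of 0.17. With TMM scaling and without normoxia library 5, 1 was lower and 1 higher, beside 4.22% and 4.43% of all genes. As deposited, Hmox1, which degrades haem, changed by -1.62 and Gclc, which starts glutathione synthesis, by 1.46 (limma adjusted p = 0.461 and 0.602). In the fit without normoxia library 5 Hmox1 was the lower gene, and Gclc did not pass (limma adjusted p = 0.0841).

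Marker lists of other cell types and of nephron segments differed between the groups to unequal extents. The summed FPKM of 12 macrophage and monocyte markers, of which Lyz2 and C1qb were highest, was 22.7 to 114.5 in the hypoxia and 136.3 to 842.5 in the normoxia libraries, without overlap. All 12 had negative changes, 11 at an unadjusted p under 0.05, and 1 passed, the Fc receptor gene Fcgr1 (-2.18, limma adjusted p = 0.0266). Of all tested genes, 6.84% were lower at that unadjusted p and 0.602% passed as lower. With TMM scaling 4 of the 12 were lower, beside 1.2% of all tested genes. In the TMM fit that left out normoxia library 5, 9 of the 12 were lower, beside 4.22% of the genes tested there. The summed neutrophil markers, led by S100a9 and S100a8, ranged from 0.06 to 3.96 FPKM after hypoxia. After normoxia the sums were 7.25, 4.83, 72.2 and 2.71 FPKM in libraries 5 to 8, so the groups overlapped and library 7 stood alone. Mpo and Camp were at 0 in 7 libraries and Ngp in 6. Summed fibroblast and pericyte markers, led by Acta2 and Col1a1, were 29.9 to 65.9 FPKM after hypoxia and 110.5 to 338 FPKM after normoxia, without overlap. Of these 8 markers 6 had negative changes, and 0 passed by limma (4 were lower at an unadjusted p under 0.05). Pdgfra and Dcn had positive changes, of 0.15 and 0.34. With TMM scaling 3 of the 8 were lower, beside 1.2% of all tested genes. The endothelial sums overlapped (49.6 to 114.7 and 38.2 to 120.4 FPKM).

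Markers of particular tubule segments had mostly positive changes, and those of tubule epithelium of any segment did not. Of 8 such epithelial markers 5 were negative, with a median of -0.31. None of these 8 passed by limma, and at an unadjusted p under 0.05 2 were lower and 0 higher, beside 6.84% and 2.52% of all tested genes. Of 12 proximal tubule markers 11 were positive, with a median of 1.07, and 0 passed by limma (2 were higher at an unadjusted p under 0.05). Their sum, mostly Kap, overlapped between the groups, at 2787 to 13570 and 329.4 to 11260 FPKM. Of the 12, 2 were higher in every hypoxia library than in any normoxia library. They were the water channel gene Aqp1 and the endocytic receptor gene Lrp2, and neither passed (limma adjusted p = 0.238 and 0.756). The share of all tested genes apart in that direction was not counted, so this count has no background to be read against. With TMM scaling and without normoxia library 5, 5 of the 12 were higher, beside 4.43% of all genes. All 6 markers of the thick ascending limb and distal tubule were positive, with a median of 1.46. Calb1, a calcium-binding protein of the distal tubule, rose by 3.10 (limma adjusted p = 0.0198). Of the 6, 3 were higher with TMM scaling, beside 1.18% of all tested genes. In the TMM fit that left out normoxia library 5, 5 of the 6 were higher, beside 4.43% of the genes tested there. The part of these cell types and segments in the changes of the 9 markers was not tested.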

How the data were processed

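Poly(A) RNA of injured kidneys was sequenced from TruSeq stranded libraries of flash-frozen, Trizol-extracted tissue, per the labels' protocols. HISAT2, StringTie and edgeR are named, without roles or versions, per the submitters' processing notes. Not given in the sources used here were build and annotation. The deposited values were the authors' FPKM per gene and library, per the file headers, and no read counts were used. All 34450 identifiers matched GENCODE M21 (GRCm38), the source of symbols, lengths and coordinates.

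log2(FPKM + 0.5) was tested without rescaling, for genes averaging at least 0.5 FPKM, by lmFit and trended eBayes of limma 3.58.1 (R 4.3.3). The step was tested on simulated data. Single ratios were compared by exact permutation over the 70 divisions of 8 libraries. Depth was estimated from the spacing of low FPKM times length, an approximation without an interval. TMM factors (30% of ratios and 5% of levels trimmed) were computed from the published formula. The other alternatives were pseudocounts of 0.1 and 1, no filter or 2 FPKM, quantile and common-sum scaling, robust or untrended variance, averaged hypoxia pairs, removal of length trends (loess, span 0.5) and each library left out. Scaling to protein-coding fragments, TMM scaling combined with averaged pairs or with length trends removed, and the comparisons with relatives were added after seeing the data.

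The markers, gene lists and tests were chosen with earlier results of these data known. Named were all 9 markers, up to 4 genes of each list that passed (otherwise the 2 with the smallest p), the relatives with a mean of at least 0.5 FPKM, for each marker the 2 nearest genes with a mean of at least 1 FPKM, and the 2 highest markers of each cell type. Not every gene the rule gives is printed. Fcgr1, Mpo, Camp, Ngp, Pdgfra, Dcn, Aqp1, Lrp2 and Calb1 fall outside it and were chosen after their values were seen.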

Additional observations from a re-analysis of the deposited data

Results flagged for a closer look

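Serpina3n measured 7.47 FPKM in hypoxia library 2, where the other 3 hypoxia libraries lay between 0.06 and 1.0 FPKM. The gap to the nearest of them was 0.873 of the range of the group, above the critical value of Dixon's test for 4 samples. This was 1 of 18 groups examined (9 markers in 2 groups), and chance marks about 1 in 20. Without hypoxia library 2 the change of Serpina3n was -1.67 ± 0.56 (SE), with a limma adjusted p of 0.195.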

How the results depend on the processing

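The number of markers lower after hypoxia, 2 as deposited, was 1 with a pseudocount of 1, beside 47 of 14444 genes tested. It was 5 with a filter of 2 FPKM, beside 79 of 8466 genes tested. With quantile normalization it was 4, beside 349 of 14444, and with a common sum of FPKM 4, beside 157 of 14444. With TMM scaling without normoxia library 5 it was 5, beside 608 of 14414. It was 0 without a filter, with untrended variance, with hypoxia libraries averaged in pairs, and with that and TMM scaling. It ranged from 0 to 5 when each library was left out. Where it was 0, 5 or 6 markers were lower at an unadjusted p under 0.05 by limma. No marker was higher under any of the 23 alternatives. Of 207 marker values under them, 171 kept direction and call, 18 kept direction and lost the call, 18 gained it and 0 reversed.

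All-gene counts lower and higher, 87 and 44 as deposited, were 0 and 0 without a filter (1356 and 665 at an unadjusted p under 0.05 by limma), 173 and 170 with TMM scaling, 349 and 280 with quantile normalization, 8 and 17 with untrended variance, 608 and 638 with TMM scaling without normoxia library 5, 5 and 22 with averaged pairs, 0 and 1 with averaged pairs and TMM scaling (578 and 545 at an unadjusted p under 0.05), 251 and 200 with length trends removed, 300 and 244 with that and TMM scaling, and 228 and 148 with scaling to protein-coding fragments. Lower genes numbered 47 with a pseudocount of 1 and 157 with a common sum. Leaving out each library gave 4 to 237 lower and 11 to 67 higher. The cause was not tested.

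Relative to the other markers, Clu changed sign with a pseudocount of 0.1 (0.0468, from -0.18) and ranged from -0.57 to 0.53 when each library was left out, reversing without normoxia library 5 (0.53). Cd44 ranged from -0.89 to 0.0386, reversing without hypoxia library 2 (0.0386, from -0.29).

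No paired analysis was possible because the groups share no replicate number. Levels near or under 1 FPKM, as for Cd44, Serpina3n, Vcam1 and Akr1b8 in some hypoxia libraries, rest on few fragments. The fewest in any library were about 1.1 for Serpina3n, 14.2 for Akr1b8, 14.4 for Cd44 and 38.5 for Vcam1.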
